A study of Mus musculus with 15 samples.

Results

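The mRNAs of 10 factors that have been linked to translation of expanded repeats were followed in mouse striatum: Eif2a, Eif2d, Eif4a1, Eif4b, Eif4h, Eif4g2, Eif5, Eif3f, Dhx36 and Rps25. They were taken by name from the processed count matrix, where all 10 were found as single rows among 54232 gene identifiers, and none was chosen by its level. In GENCODE M21 (GRCm38) all are protein-coding: Eif2a spans chr3:58525821-58557501, Eif2d chr1:131153181-131187658, Eif4a1 chr11:69666936-69672423, Eif4b chr15:102073773-102097173 and Eif4h chr5:134619721-134639490. Eif4g2 spans chr7:111067750-111083030, Eif5 chr12:111538016-111546752, Eif3f chr7:108934417-108942951, Dhx36 chr3:62468013-62507004 and Rps25 chr9:44407139-44410427. All 10 passed the filter on low counts that left 18278 genes for testing. The RNA-seq libraries came from striata of 15 animals, all 6 months old, with 1 library for each: 7 WT, 4 E1 and 4 KI-96 mice. The study's title concerns toxicity from repeat-associated non-AUG (RAN) translation in mice that model Huntington's disease, a disorder of an expanded CAG repeat in the huntingtin gene. The labels give E1 and KI-96 as genotypes with no repeat length, strain or further allele, and no treatment for any group.

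In canonical initiation the cap-binding complex eIF4F loads the small (40S) ribosomal subunit onto an mRNA, the subunit scans with eIF1, eIF2, eIF3 and eIF5 bound, and initiation starts at an AUG codon. RAN translation reads through an expanded repeat without a start at an AUG, in more than one reading frame. Work on CGG and GGGGCC repeats has tied it to the helicase eIF4A and its cofactors, to alternative carriers of initiator tRNA, to start codon stringency, to helicases that unwind G-quadruplexes, and to the small-subunit protein RPS25. The deposited data measure the mRNAs of these factors, not repeat translation itself.

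The surroundings of the members' annotated starts were searched for a sequence feature found in mRNAs of the translation apparatus. Many such mRNAs start with a run of pyrimidines (C or T), the TOP element, through which growth signalling controls their translation. The longest unbroken run of C and T within 30 bases either side of the annotated start was searched on the gene's strand in RefSeq promoter windows (build GRCm38.p6), which matched 9 of the 10 members by symbol; Eif4g2 was not matched. Windows of 30 bases are shown for the members whose levels are compared with ribosomal protein genes later, with the longest run in capitals.
Rps25: ccaccgggCTTCCTTTTTTTCCgacatctt
Eif3f: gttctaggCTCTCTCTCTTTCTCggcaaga
Eif4b: atgtcgcgcaggTCTTCCCgtcggacgccg
Eif4a1: tccgaactaaagcgCCTacaaagtaacgtc
The Rps25 window is chr9:44407684-44407713 on the plus strand, and its run of 14 starts 22 bases before the RefSeq start, which lies 575 bases inside the longer GENCODE span given above. The Eif3f window is chr7:108934403-108934432 on the plus strand, with a run of 15 that starts 4 bases before it. The Eif4b window (chr15:102073748-102073777, plus strand) has a run of 7, and the Eif4a1 window (chr11:69672426-69672455, minus strand) a run of 3. A run of at least 8 was present in 2 of the 9 matched members, Rps25 and Eif3f. It was present in 21.6% of the 12542 tested genes with a window and in 12 of 24 matched 40S ribosomal protein genes, so the members' share of 22.2% lay near that of all tested genes. A run in this window is a match of letters and does not show that the transcript starts there. The search did not require a run to begin at the first base, as a TOP element does. The Rps25 run ended before the RefSeq start, and the windows printed for Rps25 and Eif4a1 do not hold that start. The search therefore does not tell which members carry a TOP element.

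Several features of the libraries bear on every comparison. Total counts ran from 14678565 to 26388542, and the 10 members together took between 0.187% and 0.206% of them. Y-linked reads were present in 6 of 7 WT libraries and in none of the E1 or KI-96 libraries (155 to 218 CPM, reads of a gene scaled to the size of its library, against at most 0.13 CPM, summed over Eif2s3y, Ddx3y, Kdm5d and Uty). WT replicate 1 was the WT library without them, so genotype and the presence of a Y chromosome can be separated from WT through that library alone. Markers of striatal projection neurons were high in all 15 libraries (mean log2 CPM of 10 genes 8.48 to 9.40). The mean of 10 cortical neuron markers reached 5.56 for WT replicate 3, 4.94 for E1 replicate 3 and 5.69 for E1 replicate 2, while the remaining 12 libraries lay between 1.35 and 2.94. KI-96 replicate 3 lay at 73.0 on the first principal component, where the other 14 libraries lay between -34.7 and 23.1, and mitochondrial genes took 3.62% of its counts against 4.57% to 6.37% elsewhere. In bulk tissue fewer cells of a type and less RNA per cell cannot be told apart. WT replicates 5 to 7, numbers that only WT has, held the highest total counts (23457270 to 26388542), with KI-96 replicate 4 close at 23373551. They lay at 30.5 to 33 on the second principal component, where every other library lay at 19.8 or below. The reason was not tested, and the labels give no batch. The labels number every mouse separately, so replicates are animals.

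All members were well covered, but they fell into separate tiers of abundance. Levels were compared between genes as CPM per kilobase of annotated exon (the union of all exons) in the 7 WT libraries. Rps25, the small-subunit protein, had the highest mean, 59.5 ± 6.37 CPM per kilobase (SD, n = 7). Eif4h followed at 56.6 ± 4.31, Eif4a1 at 54.0 ± 3.37, Eif4g2 at 51.2 ± 4.01 and Eif4b at 48.6 ± 3.25, and each of these 5 overlapped its neighbour in range over the WT libraries. Eif3f at 34.8 ± 1.63 and Eif5 at 33.0 ± 1.91 CPM per kilobase formed the next tier and overlapped each other. Dhx36 (9.52 ± 0.562), Eif2a (6.97 ± 0.443) and Eif2d (3.80 ± 0.304) were lower and did not overlap one another. Annotated retained introns lengthen the union, most of all for Rps25 (2691 bases against 577 for its shortest well-supported coding transcript). With the shortest such transcript as length, a choice made after seeing the data, Rps25 stood at 278 ± 29.7 CPM per kilobase and Eif4g2 came next at 147 ± 11.5. Eif5 then lay above Eif4b (114 ± 6.61 against 56.3 ± 3.77), and Eif2a at 18.5 ± 1.18 overlapped Dhx36 at 17.3 ± 1.02. Eif2d was lowest under both lengths. The smallest raw count behind any value of a member was 296, for Eif2d in KI-96.

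**Figure D1:**
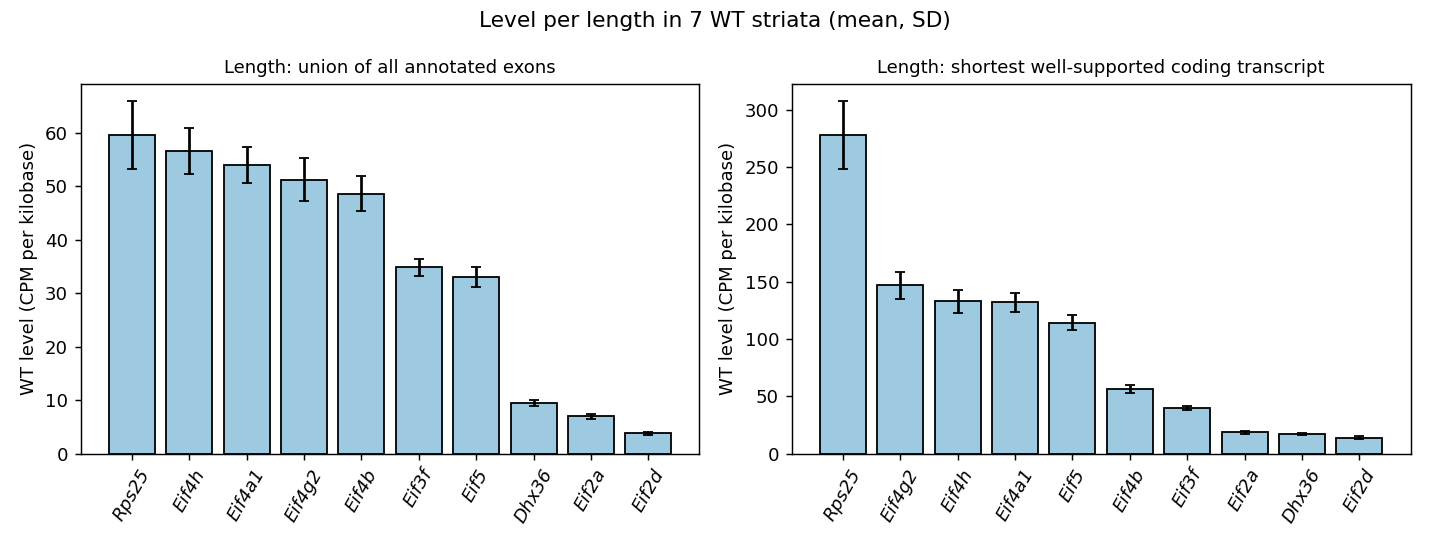
Mean level of each factor in 7 WT striata, as CPM per kilobase, with the union of exons as length (left) and the shortest well-supported coding transcript (right); bars start at 0 and error bars are SD. Rps25 is highest in both panels (59.5 and 278 CPM per kilobase) and Eif2d lowest (3.80 and 14.0).

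To ask whether the mRNAs of these factors differ between genotypes, each was compared in the fit across all genes. None of the 10 passed the threshold (edgeR quasi-likelihood test, adjusted p under 0.05) in any comparison. The share of all tested genes that passed was 0.00547% for E1 against WT (1 gene, Dusp5, log2 fold change 0.80, SE 0.11, adjusted p = 0.0339), 0% for KI-96 against WT and 0% for KI-96 against E1. DESeq2 also called 0 members, with adjusted p under 0.05 for 0.276%, 0.273% and 1.14% of the genes to which it gave an adjusted p (56, 67 and 200 genes). By limma-voom 0 members were called too, beside 0.0109%, 0% and 0% of all genes. At an unadjusted p under 0.05 there were 0 members in E1 against WT, where 8.75% of all genes reached it. There were 2 members in KI-96 against WT (Eif4b higher and Eif2d lower, against 10.5% of all genes) and 2 in KI-96 against E1 (Eif4b higher and Eif4a1 lower, against 14.3%). No member had groups without overlap in E1 against WT (1.69% of all genes) or in KI-96 against WT (1.29%), and 1 did in KI-96 against E1 (4.79%). The median log2 fold change over the members was 0.04 in E1 against WT (all genes -0.00), -0.06 in KI-96 against WT (all genes -0.01) and -0.04 in KI-96 against E1 (all genes -0.00). The comparisons with WT share the 7 WT libraries, and are therefore not independent of each other. In this fit, with group alone, the 95% intervals of single members against WT reached from a fold of 0.800 (Eif2d) to 1.32 (Eif3f) in E1. In KI-96 they reached from 0.749 (Eif2d) to 1.39 (Eif4b) against WT and from 0.730 (Rps25) to 1.45 (Eif4b) against E1. With the presence of Y-linked reads as a covariate, added after seeing the data, the intervals against WT were wider. On the log2 scale they then reached from -0.50 (Eif4b) to 0.69 (Eif3f and Rps25) in E1, and from -0.42 (Eif4g2) to 0.60 (Eif3f) in KI-96.

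**Figure D2:**
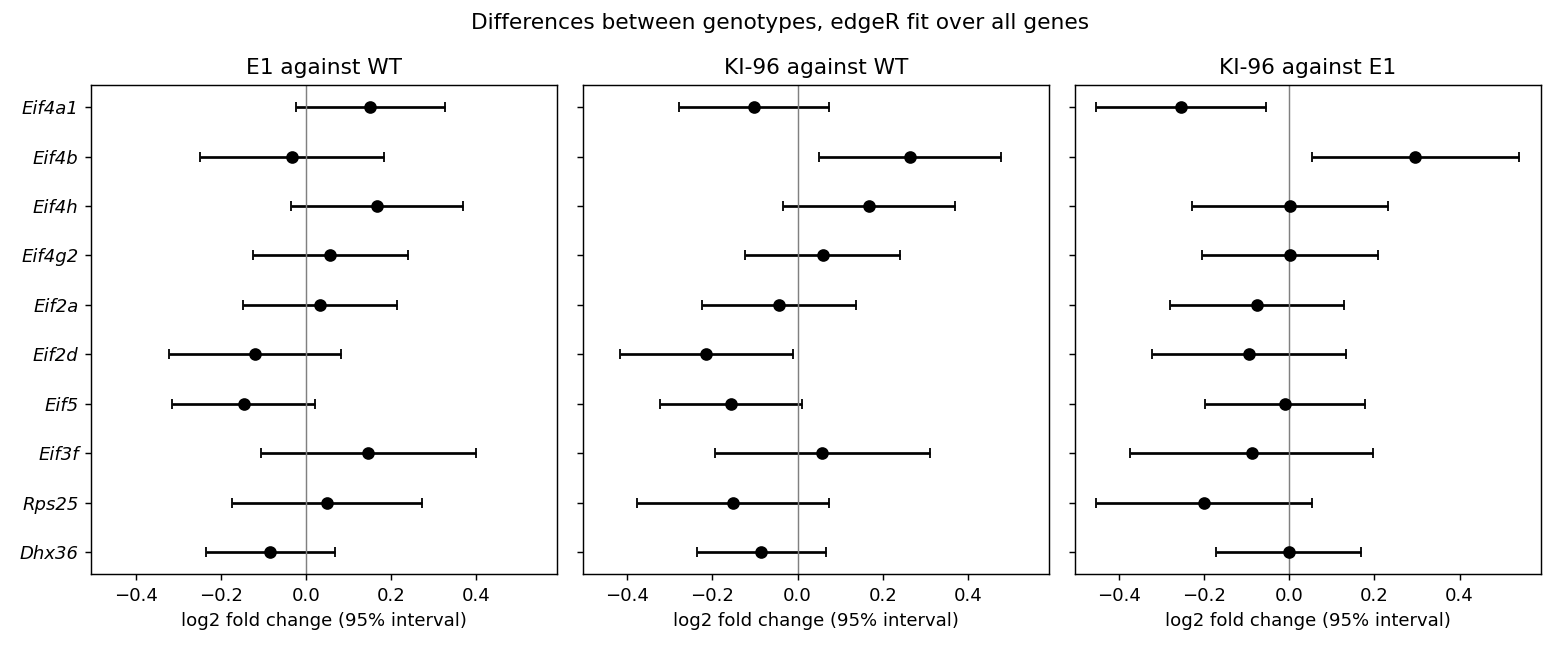
The log2 fold change of each factor with its 95% interval in the 3 comparisons (edgeR fit to all 15 libraries); the grey line marks no difference. Most intervals include 0; those of Eif4b and Eif2d in KI-96 against WT, and of Eif4a1 and Eif4b in KI-96 against E1, do not, and none of these passed after adjustment over all genes.

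Eif4a1 encodes the DEAD-box helicase of eIF4F that unwinds mRNA leaders. Its level in WT ran from 214.0 to 254 CPM with a median of 234. In E1 it was 277, 246, 275 and 242 CPM, and in KI-96 it was 228, 223, 192 and 228 CPM. All 4 KI-96 libraries lay below all 4 E1 libraries, while both groups overlapped WT; 2.5% of all genes had KI-96 wholly below E1. The log2 fold change was 0.15 (SE 0.08, adjusted p = 0.613) for E1 against WT, -0.10 (SE 0.08, adjusted p = 0.684) for KI-96 against WT and -0.25 (SE 0.09, adjusted p = 0.268) for KI-96 against E1, which compares animals that all lack Y-linked reads. That last value ran from -0.29 to -0.20 when each library was left out in turn, the smaller size without KI-96 replicate 3. The Y-linked covariate gave 0.20 (SE 0.16) for E1 and -0.06 (SE 0.15) for KI-96 against WT. Reads of a processed pseudogene named for the family, Eif4a-ps4 (chromosome 1), numbered 18 to 58 per library, and the treatment of reads matching several copies is not stated.

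Its paralog Eif4a2, the more abundant eIF4A of neurons, was higher than Eif4a1 per length in WT (100.3 ± 3.84 against 54.0 ± 3.37 CPM per kilobase, union of exons). Eif4a2 in E1 lay wholly above WT (559 to 595 against 505 to 557 CPM), giving 0.11 on the log2 scale (SE 0.08, adjusted p = 0.698); 0.892% of all genes had E1 wholly above WT. For KI-96 it was -0.03 (SE 0.08) against WT and -0.14 (SE 0.09) against E1, neither past the threshold.

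Eif4b and Eif4h encode RNA-binding cofactors that stimulate the helicase activity of eIF4A. Eif4b in WT ran from 201 to 244 CPM with a median of 212, and in E1 it was 207, 217, 213 and 212 CPM. KI-96 divided: replicates 1 and 3 stood at 302 and 299.7 CPM, above every other library of the study, replicate 2 at 237 and replicate 4 at 204.0 CPM. The log2 fold change of Eif4b was -0.03 (SE 0.10, adjusted p = 0.941) for E1 against WT, 0.26 (SE 0.10, adjusted p = 0.391) for KI-96 against WT and 0.30 (SE 0.12, adjusted p = 0.279) for KI-96 against E1. Against WT the KI-96 value was 0.18 without KI-96 replicate 1 and 0.36 without KI-96 replicate 4, whose omission gave the smallest adjusted p of that value when a library was left out (0.0907). The same omission gave 0.40 with an adjusted p of 0.0653 against E1. Under the Y-linked covariate the values against WT were -0.11 (SE 0.19) for E1 and 0.19 (SE 0.19) for KI-96.

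Eif4h ran from 283 to 349 CPM in WT, with a median of 307. It was 360.1, 373, 351 and 327 CPM in E1 and 398, 376, 289 and 350.4 CPM in KI-96. Of the 8 E1 and KI-96 libraries, 7 lay above the WT median and KI-96 replicate 3 below it, and all groups overlapped. Against WT the log2 fold change came to 0.17 (SE 0.10) in both mutant groups, with adjusted p-values of 0.621 for E1 and 0.550 for KI-96. WT replicate 1, without Y-linked reads, had the highest WT level, 349 CPM. With the presence of Y-linked reads as a covariate, added after seeing the data, both of these values were 0.02 with an SE of 0.17.

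Eif4g2 encodes DAP5, a relative of eIF4G without the cap-binding part that supports initiation independent of the cap, and whose own reading frame starts at a GUG codon. It was the member with the most counts, at 466 to 581 CPM in WT (median 519). E1 had 525, 533, 566 and 542 CPM and KI-96 had 562, 526, 572 and 508 CPM, all within the WT range. The log2 fold change against WT was 0.06 in each, with an SE of 0.09. With the Y-linked covariate it was -0.10 in each (SE 0.15). Among WT libraries Eif4g2 was highest in replicate 1 (581 CPM). Between libraries of a group it varied less than most genes of like abundance: its residual SD on the log2 scale was 0.0921, larger than that of 2.4% of the 500 genes nearest in WT level. The canonical scaffolds were measured beside it. Against WT, the Eif4g1 log2 fold change was -0.03 (SE 0.09) in the E1 group and 0.10 (SE 0.09) in KI-96. Eif4g3 had -0.01 (SE 0.16) and 0.42 (SE 0.16, adjusted p = 0.380), the latter with 453 CPM in KI-96 replicate 3 and 226 to 237 CPM in the other 3.

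Eif2a and Eif2d encode factors that can bring initiator tRNA to the ribosome in place of eIF2. Eif2a is not a subunit of eIF2, whose alpha subunit is encoded by Eif2s1. Eif2a ran from 38.4 to 45.1 CPM in WT (median 44.2), was 49.0, 43.5, 41.7 and 40.4 CPM in E1 and 42.0, 41.1, 46.5 and 36.1 CPM in KI-96. E1 replicate 1 and KI-96 replicate 3 were the 2 highest libraries and KI-96 replicate 4 the lowest, with the groups overlapping. Log2 fold changes were 0.03 (SE 0.09) for E1 against WT and -0.04 (SE 0.09) for KI-96 against WT, with adjusted p-values of 0.927 and 0.889. The lowest WT level (38.4 CPM) was that of replicate 1, and the Y-linked covariate gave 0.19 (SE 0.15) and 0.11 (SE 0.15).

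Eif2d was the least abundant member, at 25.0 to 31.7 CPM in WT (median 28.2). It stood at 24.4, 27.4, 23.1 and 28.3 CPM in E1 and at 21.5, 21.7, 26.4 and 26.9 CPM in KI-96. KI-96 replicates 1 and 2 lay below every other library, while replicates 3 and 4 lay inside the WT range. Its log2 fold change was -0.12 (SE 0.10, adjusted p = 0.714) in E1 and -0.21 (SE 0.10, adjusted p = 0.449) in KI-96 against WT. WT replicate 1 had the lowest WT level (25.0 CPM), and with the Y-linked covariate the values were 0.05 (SE 0.17) and -0.05 (SE 0.17). The locus overlaps exons of Rassf5 on the opposite strand and that of Eif2a exons of Serp1, and whether counting used strand is not given.

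Eif5 encodes the GTPase-activating protein of eIF2, which sets how strictly an AUG is selected, and Eif3f a subunit of the eIF3 scaffold. Eif5 ran from 209 to 245 CPM in WT (median 226). It was 191, 188, 219 and 215 CPM in E1 and 209.7, 193, 195 and 209.3 CPM in KI-96. Of these 8 libraries 4, with 2 in each group, lay below the lowest WT library. The log2 fold change was -0.15 (SE 0.08, adjusted p = 0.609) in E1 and -0.16 (SE 0.08, adjusted p = 0.500) in KI-96 against WT. WT replicate 1 again had the lowest WT level, 209 CPM, and with the Y-linked covariate both were nearer to 0, at -0.04 (SE 0.14) and -0.05 (SE 0.14).

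Eif3f was even in WT, from 95.8 to 109.7 CPM (median 99.3), and stood at 123, 112, 109 and 102 CPM in E1. In KI-96 it spread more than any other member, with 134 CPM in replicate 1, 96.9 in replicate 2, 72.2 in replicate 3 and 116 in replicate 4, a coefficient of variation of 25.2% against 4.68% in WT. Replicates 1 and 3 of KI-96 were the highest and the lowest libraries of the study for this gene. On the log2 scale the difference was 0.15 (SE 0.12, adjusted p = 0.721) for E1 against WT and 0.06 (SE 0.12, adjusted p = 0.892) for KI-96 against WT. The KI-96 value was 0.20 without replicate 3 and -0.08 without replicate 1. Among WT libraries replicate 1 was lowest (95.8 CPM). Under the Y-linked covariate the values against WT were 0.22 (SE 0.23) for E1 and 0.13 (SE 0.22) for KI-96.

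Dhx36 encodes a helicase that unwinds G-quadruplexes, structures that G-rich repeat RNA can form. It ran from 87.1 to 105 CPM in WT (median 98.7), and was 91.5, 88.0, 92.1 and 95.7 CPM in E1 and 97.1, 90.2, 94.6 and 85.1 CPM in KI-96. All E1 libraries and 3 of 4 KI-96 libraries fell inside the WT range. The log2 fold changes against WT were -0.08 (SE 0.07, adjusted p = 0.737) in E1 and -0.08 (SE 0.07, adjusted p = 0.697) in KI-96, with 95% intervals from -0.23 to 0.07 and from -0.24 to 0.07. The Y-linked covariate gave -0.12 (SE 0.13) for E1 and -0.13 (SE 0.13) for KI-96 against WT. The residual SD of Dhx36, 0.0782, was the smallest of the members. WT replicate 3 and E1 replicate 2, the libraries highest in cortical markers, had the lowest value of their groups. Across the 15 libraries, with group means subtracted, Dhx36 had a Pearson r of -0.622 with the cortical marker mean (permutation p = 0.0125, adjusted p = 0.125 over 40 relations; Spearman rho -0.482, p = 0.0719, adjusted p = 0.320), and r was -0.261 without the 2 libraries farthest from the median (the same pair). That relation therefore rested on those libraries.

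Rps25 encodes a 40S protein near the site where tRNA leaves the ribosome, needed for initiation from some viral internal entry sites and reported to favour repeat translation. It ran from 136 to 193 CPM in WT (median 159.8). E1 had 173, 150.0, 164 and 176 CPM, and KI-96 had 165, 129.5, 119 and 163 CPM. KI-96 replicates 2 and 3 lay below every other library, and the groups overlapped. For Rps25 the log2 fold change was 0.05 (SE 0.11, adjusted p = 0.905) for E1 against WT, -0.15 (SE 0.11, adjusted p = 0.634) for KI-96 against WT and -0.20 (SE 0.12, adjusted p = 0.447) for KI-96 against E1. Without KI-96 replicate 3 the last 2 values were -0.07 and -0.12. WT replicate 1 had the lowest WT level (136 CPM), and with the Y-linked covariate the value was 0.29 (SE 0.19) for E1 against WT, the largest of any member, and 0.09 (SE 0.19) for KI-96 against WT; neither passed the threshold (adjusted p = 1.00). The locus overlaps exons of Trappc4 and Ccdc84 on the opposite strand, and the pseudogene Rps25-ps1 (chromosome 6) held 2 to 13 reads per library.

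**Figure D3:**
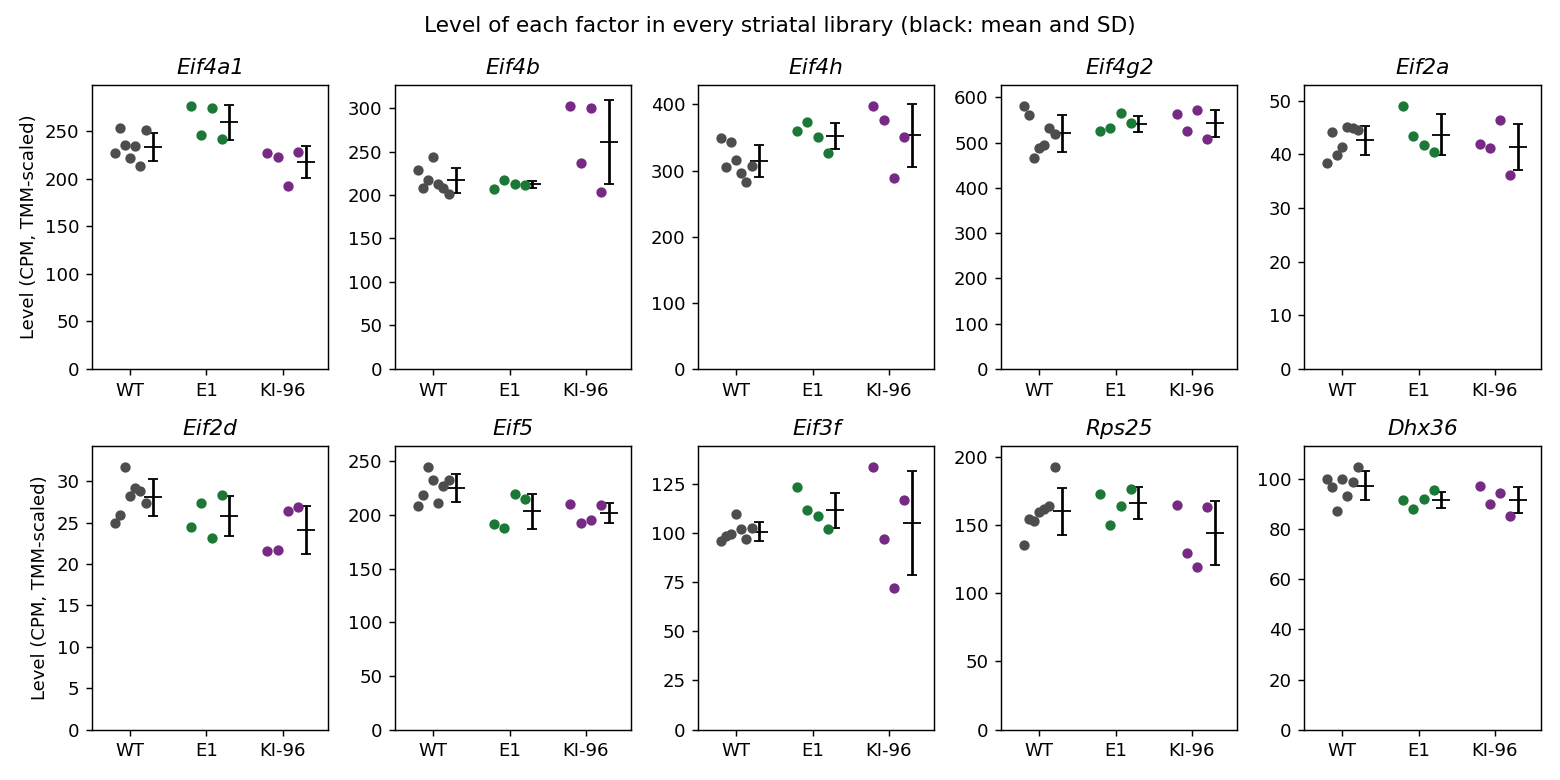
Level of each factor (CPM, scaled by the trimmed mean of M-values) in every library of WT (grey, n = 7), E1 (green, n = 4) and KI-96 (purple, n = 4); points are libraries in replicate order, black marks are the mean and SD, and each axis starts at 0. Relative to the group mean, the KI-96 libraries spread widest for Eif3f (72.2 to 134 CPM) and Eif4b (204.0 to 302 CPM), and for Eif4a1 all 4 lie below E1.

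The members were also compared with one another from mouse to mouse. Log2 CPM values with group means subtracted were correlated over the 15 libraries for the 45 pairs of members. No pair had an adjusted p under 0.05 (permutation within groups, smallest adjusted p = 0.362), and 5 had an unadjusted p under 0.05. The largest positive value was that of Eif3f with Rps25 (Pearson r = 0.676, permutation p = 0.0350, adjusted p = 0.362). For that pair Spearman rho was 0.614 (permutation p = 0.0807, adjusted p = 0.682), and r was 0.440 without the 2 libraries farthest from the median. Negative values were seen too, as for Eif2d with Eif4g2 (r = -0.564, p = 0.0338; rho = -0.557, p = 0.0539), with r = -0.425 without the 2 farthest libraries.

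Rps25 and Eif3f were instead most like ribosomal protein genes. Of all 18278 tested genes, the one whose group-centred pattern over the 15 libraries was most like Rps25 was Rpl26 (Pearson r = 0.956), followed by Rpl36a (0.930) and Rps27a (0.915). The one most like Eif3f was Rpl6 (0.956), followed by Rps9 (0.943) and Rpl14 (0.930). For the other members the gene most alike was not a ribosomal protein: Josd1 for Eif4a1 (0.893), Smyd3 for Eif4b (0.944), Mtch1 for Eif4h (0.954), Usp31 for Eif4g2 (0.904), Otud4 for Eif2a (0.912), Tyk2 for Eif2d (0.921), Lig1 for Eif5 (0.817) and Stam2 for Dhx36 (0.938). These are the largest of a great many correlations and are given as a description.

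The mean log2 CPM of 32 other 40S protein genes ran from 7.31 to 7.54 in WT and from 7.43 to 7.55 in E1, but from 6.78 (replicate 3) to 7.61 (replicate 1) in KI-96. With this mean, Rps25 had a Pearson r of 0.807 (permutation p = 0.000900, adjusted p = 0.0360 over 40 relations) and a Spearman rho of 0.825 (p = 0.00351, adjusted p = 0.140), and r was 0.787 without KI-96 replicates 1 and 3, the libraries farthest from the median. Eif3f had an r of 0.903 (p = 0.0139, adjusted p = 0.125; rho = 0.657, p = 0.0647, adjusted p = 0.320) and 0.590 without those libraries. Eif4a1 had an r of 0.686 (p = 0.00236, adjusted p = 0.0472; rho = 0.639, p = 0.0114, adjusted p = 0.200) and 0.533 without them. For Eif4b the value was negative (r = -0.391, p = 0.580, adjusted p = 0.761; rho = -0.211, p = 0.491, adjusted p = 0.875). Eif4b was high in KI-96 replicates 1 and 3, where the 40S mean was highest and lowest, and without those libraries its r was -0.692. The mitochondrial share was also highest in KI-96 replicate 1 (6.37%) and lowest in replicate 3 (3.62%), and the members' relation to it was among the 40. Eif2d had a negative r with it (-0.605, permutation p = 0.0337, adjusted p = 0.193), and -0.486 without KI-96 replicates 1 and 3. Its rho was -0.627 (permutation p = 0.027, adjusted p = 0.216). With the mitochondrial share, Eif4a1 had an r of 0.635 (permutation p = 0.0287, adjusted p = 0.192; rho = 0.667, p = 0.0150, adjusted p = 0.200) and 0.544 without those libraries. Eif4h had an r of 0.764 (permutation p = 0.0156, adjusted p = 0.125; rho = 0.652, p = 0.0219, adjusted p = 0.216) and 0.506 without them. The value for Eif3f was 0.743 (permutation p = 0.0802, adjusted p = 0.332; rho = 0.366, p = 0.271, adjusted p = 0.875) and 0.0828 without them. Rps25 had an r of 0.386 (permutation p = 0.379, adjusted p = 0.714; rho = 0.122, p = 0.719, adjusted p = 0.878) and -0.186 without them, and Eif4b an r of 0.0810 (permutation p = 0.915, adjusted p = 0.939).

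**Figure D4:**
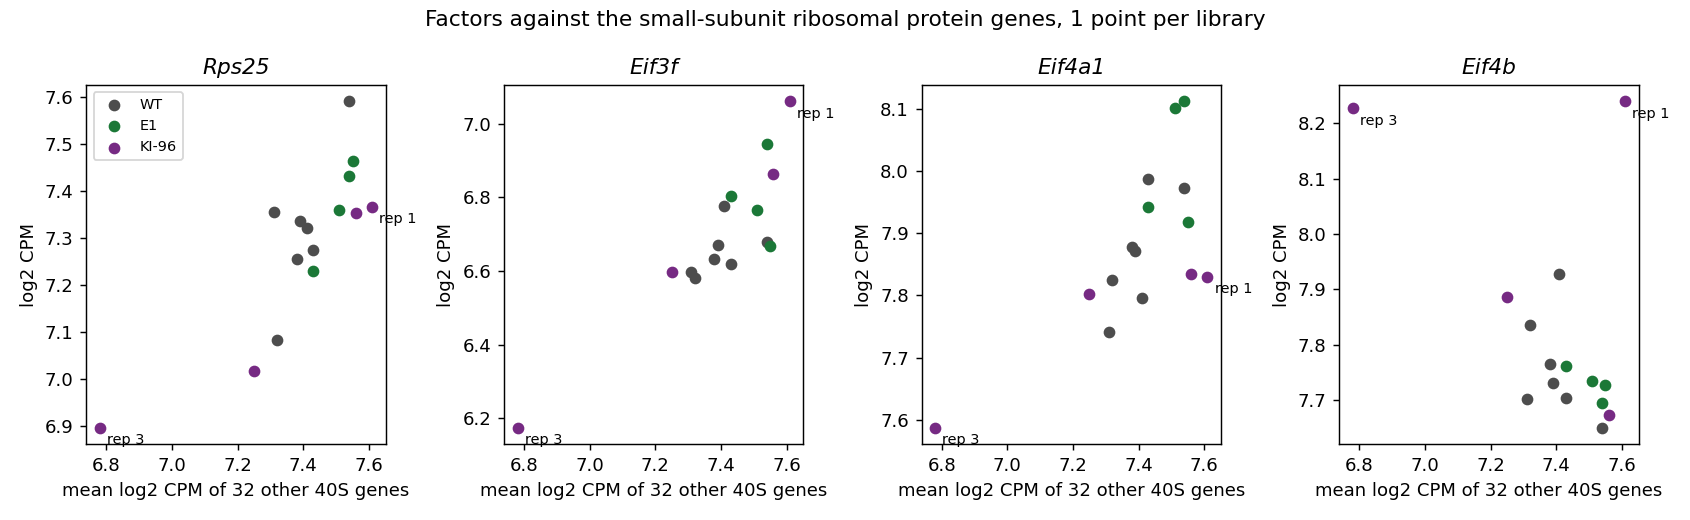
Log2 CPM of Rps25, Eif3f, Eif4a1 and Eif4b against the mean log2 CPM of 32 other 40S ribosomal protein genes, 1 point per library (WT grey, E1 green, KI-96 purple), with KI-96 replicates 1 and 3 labelled; both axes are log2 and do not start at 0. KI-96 replicate 3 lies at the low end of the 40S mean (6.78) and is low for Rps25, Eif3f and Eif4a1, and high for Eif4b.

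The rest of the initiation apparatus was described through 8 lists of other factors, with 109 of 110 genes tested. None of the 109 passed the threshold in any comparison; the smallest adjusted p-values were 0.518 for E1 against WT, 0.241 for KI-96 against WT and 0.213 for KI-96 against E1. At an unadjusted p under 0.05 there were 3 of 109 (2.8%) in E1 against WT, 13 (11.9%) in KI-96 against WT and 12 (11.0%) in KI-96 against E1, against 8.75%, 10.5% and 14.3% of all genes. Fold changes above 0 were found for 83 of the 109 in E1 against WT (49.7% of all genes), for 56 in KI-96 against WT (47.9%) and for 44 in KI-96 against E1 (49.4%). The genes named for each list are the 2 with the smallest p in each comparison, given as values.

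Among 17 genes of the cap-binding complex and its regulators, median log2 fold changes were 0.07 for E1 against WT, 0.09 for KI-96 against WT and 0.08 for KI-96 against E1. In E1 the 2 smallest p-values against WT belonged to the cap-binding protein Eif4e (0.16, SE 0.08) and the eIF4E kinase Mknk2 (0.15, SE 0.10). In KI-96 against WT they belonged to Eif4ebp2, the main eIF4E-binding repressor of brain (0.30, SE 0.10, adjusted p = 0.361), and to the scaffold Eif4g3. Eif4ebp2 stood at 98.7, 94.8, 117 and 87.9 CPM in KI-96 and at 70.7 to 93.3 CPM in WT, where WT replicate 1 was highest. Between KI-96 and E1 they belonged to Mknk2 (-0.32, SE 0.12) and Eif4g3 (0.43, SE 0.18).

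The next list held 8 genes of eIF2, which carries initiator tRNA, and of its exchange factor eIF2B. In KI-96 against WT it had the lowest p of any list. Eif2s3x, the X-linked gene of the gamma subunit, gave 0.87 on the log2 scale in KI-96 against WT (SE 0.18, adjusted p = 0.241) and 0.45 in E1 against WT (SE 0.18, adjusted p = 0.527). It stood at 119, 86.2, 128 and 72.1 CPM in KI-96 and at 66.5, 74.8, 83.5 and 79.3 CPM in E1. WT replicate 1 had 87.8 CPM, and the 6 WT libraries with Y-linked reads had 42.2 to 64.9 CPM. Those 6 also held 48.7 to 63.2 CPM of the Y-linked copy Eif2s3y, of which the other 9 libraries had none. All 9 libraries without Y-linked reads were thus above the other 6 for Eif2s3x, and genotype cannot be told apart from that division except through WT replicate 1. The second gene was Eif2s2 (0.12, SE 0.07) in E1 against WT and Eif2b5 (0.16, SE 0.08) in KI-96 against WT. For KI-96 against E1 the genes were Eif2b1 (-0.30, SE 0.13) and Eif2s3x (0.41, SE 0.21).

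Phosphorylation of eIF2, set by kinases and phosphatases, is a condition reported to favour repeat translation. Of 8 genes of these enzymes and their partners, 0 reached an unadjusted p under 0.05 in any comparison. The shares of all genes were 8.75%, 10.5% and 14.3%. List medians were 0.06, 0.05 and 0.04 in the 3 comparisons. The values with the smallest p were those of the amino acid sensor Eif2ak4 (-0.17, SE 0.11) and the phosphatase catalytic subunit Ppp1ca (0.26, SE 0.16) in E1 against WT. In KI-96 against WT they were those of Eif2ak3, the kinase PERK of the endoplasmic reticulum (0.15, SE 0.09), and Eif2ak2, the double-stranded RNA kinase PKR (0.35, SE 0.30). In KI-96 against E1 they were those of the adaptor Nck1 (-0.17, SE 0.11) and the stress-induced phosphatase subunit Ppp1r15a (-0.24, SE 0.17).

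The other 12 subunits of eIF3, the partners of Eif3f, had medians of 0.09, 0.11 and 0.02. Eif3g was wholly higher in E1 than in WT (55.1 to 60.4 against 47.7 to 52.0 CPM, log2 fold change 0.20, SE 0.08, adjusted p = 0.518), and Eif3e followed (0.18, SE 0.09). E1 lay wholly above WT for 1 of these 12 genes and for 0.892% of all genes. Eif3b had 0.38 in KI-96 against WT (SE 0.10, adjusted p = 0.298), at 124 to 160 CPM in KI-96 and 91.9 to 131 CPM in WT, the highest WT value being replicate 1. Eif3c had 0.22 (SE 0.09) there, and the same pair had the smallest p in KI-96 against E1 (0.21, SE 0.11, for Eif3b and 0.19, SE 0.10, for Eif3c).

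The partners of Eif5 were 12 factors of start codon selection and subunit joining. All 12 had log2 fold changes above 0 in E1 against WT (49.7% of all genes), from 0.02 to 0.32. Of these, 0 reached an unadjusted p under 0.05, where 8.75% of all genes did. Eif1, which guards AUG recognition (0.32, SE 0.19), and the eIF5 mimic Bzw1 (0.13, SE 0.08) came first. In KI-96 against WT they were Mcts1, a partner of DENR in reinitiation (-0.35, SE 0.13, adjusted p = 0.365), and the joining GTPase Eif5b (0.74, SE 0.32, adjusted p = 0.447). Eif5b stood at 345 CPM in KI-96 replicate 3 and at 74.4 to 90.4 CPM in the other 3, inside or below the WT range of 79.0 to 109.9 CPM. Set against E1, KI-96 showed them for Mcts1 (-0.48, SE 0.14, adjusted p = 0.213) and Eif1 (-0.56, SE 0.21, adjusted p = 0.273). Eif1 was wholly lower in KI-96 (253, 304, 124 and 336 CPM) than in E1 (342 to 447 CPM), lowest in replicate 3. KI-96 lay wholly below E1 for 1 of these 12 genes and for 2.5% of all genes.

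The 11 other RNA helicases had medians of 0.04, -0.01 and 0.04. Ddx3x, an X-linked helicase that has also been tied to repeat translation, had 0.23 (SE 0.11, adjusted p = 0.576) in E1 and 0.27 (SE 0.11, adjusted p = 0.410) in KI-96 against WT. It ran from 241 to 308 CPM in the 8 mutant libraries, stood at 298 CPM in WT replicate 1, and ran from 201 to 241 CPM in the WT libraries with Y-linked reads. Dhx9 (-0.17, SE 0.10) was next to Ddx3x in E1 against WT, and the decay helicase Upf1 (0.26, SE 0.10, adjusted p = 0.386) had the smallest p in KI-96 against WT. For KI-96 against E1 the splicing helicase Dhx15 (-0.29, SE 0.12) and Ddx5 (-0.20, SE 0.12) came first.

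Of 9 tested genes of ribosome quality control, which frees stalled ribosomes, 0 reached an unadjusted p under 0.05 in any comparison. Among all genes 8.75%, 10.5% and 14.3% did. The smallest p-values were those of Rack1 (0.12, SE 0.10) and Ascc3 (-0.13, SE 0.13) in E1 against WT. They were those of Vcp (0.17, SE 0.09) and Nemf (-0.12, SE 0.07) in KI-96 against WT, and of Nemf (-0.13, SE 0.07) and Vcp (0.15, SE 0.10) in KI-96 against E1.

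The 32 other 40S protein genes, the partners of Rps25, had fold changes above 0 for 29 in E1 against WT (median 0.10), 15 in KI-96 against WT (median -0.06) and 6 in KI-96 against E1 (median -0.15). Rps23 (0.18, SE 0.08) and Rps28 (0.25, SE 0.12) had the smallest p in E1 against WT. In KI-96 they were Rps27 (-0.53, SE 0.17, adjusted p = 0.343) and Rps3 (0.23, SE 0.12) against WT, and Rps27 (-0.58, SE 0.18, adjusted p = 0.224) and Rps28 (-0.41, SE 0.14) against E1. Of the cell type markers 0 passed the adjusted threshold, and several lists had fold changes mainly of one sign. In E1 against WT fold changes were above 0 for 0 of 8 oligodendrocyte markers (median -0.38), 0 of 6 astrocyte markers, 9 of 10 cortical neuron markers (median 1.22) and 5 of 5 blood markers (median 0.85). In KI-96 against WT they were above 0 for 3 of 10 striatal projection neuron, 2 of 10 cortical neuron (median -1.755) and 1 of 8 oligodendrocyte markers. The counts there were 2 of 6 for astrocytes, 4 of 6 for microglia, 3 of 5 for endothelium and 2 of 5 for blood. Choroid plexus markers had 0 of 4 tested above 0 in every comparison (medians -0.607, -1.015 and -0.338). In KI-96 against E1 fold changes were above 0 for 0 of 10 striatal projection neuron markers (median -0.14), 1 of 10 cortical neuron markers (median -2.91), 7 of 8 oligodendrocyte markers (median 0.23) and 0 of 5 blood markers (median -1.28). The mean log2 CPM of the blood markers ran from 3.09 to 4.25 in WT, 2.85 to 5.80 in E1 and 3.56 to 3.99 in KI-96, and that of the oligodendrocyte markers from 8.79 to 9.36, 8.09 to 9.46 and 8.58 to 9.26; their part in the 40S values was not tested. Rps27 stood at 158, 117, 87.2 and 199 CPM in KI-96 and at 171 to 243 CPM in WT, with replicate 3 lowest, as for Rps25. Ribosomal protein genes have many processed copies in the genome, so counts of single genes of this family are uncertain.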

How the data were processed

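The authors deposited whole-number read counts per gene, 1 column per mouse, with no normalization; the column totals differ. STAR, HTSeq, GRCm38 and DESeq2 1.24.0 are named in the submitters' processing notes, with no role or setting. Of 54232 identifiers, 54165 matched GENCODE M21 (GRCm38) without their version, which gave symbols and exon lengths. The members and lists were chosen with earlier results of these data known.

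Genes were kept with edgeR 4.0.16's default filter by group (minimum count 10) and scaled by the trimmed mean of M-values. A robust quasi-likelihood model with group as factor was fitted to all 15 libraries, and edgeR p-values were Benjamini-Hochberg adjusted over all 18278 genes, two-sided, with a threshold of 0.05. No p was adjusted over the members alone. The script was tested on simulated data. CPM used the scaled library sizes; log2 CPM used a prior count of 2. Correlations used group-centred log2 CPM with 100000 permutations within groups. Depth per library was 14678565 to 26388542 counts.

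Named were the 10 members, the paralogs Eif4a2, Eif4g1 and Eif4g3, the 2 genes of smallest p per list and comparison (or all that passed), and the gene most like each member; further genes were chosen after their values were seen. DESeq2 1.42.0, limma-voom (limma 3.58.1), other scalings, no filter, subsets of libraries, a replicate block and covariates were tried as alternatives. Within groups, no pair of libraries agreed within sampling noise (smallest chi-square per degree of freedom 8.59).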

Additional observations from a re-analysis of the deposited data

Results flagged for a closer look

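Of the 30 combinations of 10 members and 3 groups, 1 had a library that stood apart from the rest of its group. Eif4a1 in KI-96 replicate 3 was at 192.3 CPM, where the other 3 KI-96 libraries held 223 to 228 CPM, so that the gap to the nearest library took up most of the range of the group. By chance about 1 group in 20 is picked out in this way. The same library was lowest in its group for Rps25 (119 CPM), Eif3f (72.2 CPM) and Eif4h (289 CPM). It was highest in its group for Eif2a (46.5 CPM) and Eif4g2 (572 CPM), and neither for Eif4b, Eif2d, Eif5 and Dhx36. Its mitochondrial share of counts was the lowest of the group (3.62%). Over all 15 libraries, with group means subtracted, the Pearson r with that share was 0.635 for Eif4a1 (permutation p = 0.0287, adjusted p = 0.192 over 40 relations), 0.764 for Eif4h (p = 0.0156, adjusted p = 0.125), 0.743 for Eif3f (p = 0.0802, adjusted p = 0.332) and 0.386 for Rps25 (p = 0.379, adjusted p = 0.714). Without KI-96 replicates 1 and 3 these were 0.544, 0.506, 0.0828 and -0.186. The value for Eif2d was negative (r = -0.605, permutation p = 0.0337, adjusted p = 0.193), and -0.486 without those libraries.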

How the results depend on the processing

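Of 750 values of the 30 member results under 25 alternatives per comparison, 717 kept their direction and their side of the threshold, 33 changed sign, and in none did a member pass; the smallest adjusted p was 0.0653. The number of members called was 0 under every alternative. The covariate for Y-linked reads was chosen after seeing the data. With it, log2 fold changes in E1 against WT turned to 0.045 for Eif2d and -0.101 for Eif4g2, and in KI-96 against WT to 0.109 for Eif2a, -0.099 for Eif4g2 and 0.090 for Rps25. In KI-96 against E1, Eif4h turned to -0.004 with limma-voom, -0.003 with upper-quartile scaling, -0.003 with the replicate block and -0.010 with no filter. Eif4g2 turned to -0.012 with no filter and -0.018 with the cortical marker covariate, which took Eif5 to 0.014, and Dhx36 to 0.004 with median-of-ratios size factors. With the replicate block Eif2a in KI-96 against WT was 0.011.

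Leaving out each library in turn gave these ranges where a sign changed: Eif2a -0.028 to 0.068 in E1 against WT and -0.103 to 0.016 in KI-96 against WT, and Eif3f -0.080 to 0.201 in KI-96 against WT. In KI-96 against E1 they were -0.060 to 0.087 for Eif4h, -0.025 to 0.029 for Eif4g2, -0.047 to 0.026 for Eif5, -0.226 to 0.054 for Eif3f and -0.030 to 0.031 for Dhx36.

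The count over all genes moved more, and the cause was not tested. For E1 against WT, 1 gene was called, and 56 by DESeq2, 2 by limma-voom, 4 with the replicate block and 0 with no filter, with the 2 groups compared alone, with either covariate or without the libraries high in cortical markers. For KI-96 against WT, 0 were called, and 67 by DESeq2, 1 with no filter and 6 with the replicate block. For KI-96 against E1, 0 were called, and 200 by DESeq2, 3 with no filter and 1 with the Y-linked covariate. Leaving out 1 library gave 0 to 257, 0 to 11 and 0 to 190 genes in the 3 comparisons, the highest counts without E1 replicate 4, WT replicate 1 and E1 replicate 4. Without KI-96 replicate 4 there were 128 in KI-96 against E1, and without WT replicate 1 there were 12 in E1 against WT. Replicate numbers do not mark shared animals. Same-numbered libraries deviated together with correlations of -0.103 to 0.194, and not every library correlated best with its own number. Whether the numbers mark a batch was not tested. Raw counts of the members were at least 296. The lowest was that of Eif2d in KI-96 replicate 1, the library with the lowest total count. The part of depth in the members' values was not tested.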
